A study of Mus musculus with 13 samples.

Results

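The collagen gene family was examined in RNA sequencing of mouse mammary tumors and mammary glands. The family was taken as every row of the count table whose symbol reads Col, a number, the letter a and a number. The table held 45 such rows among 24421 gene symbols. Of these, 44 encode collagen chains. The other, Col4a3bp, encodes a ceramide transport protein and was counted apart. The 44 chain genes fall into 11 fibrillar genes, 6 basement membrane genes of type IV, 9 genes of the FACIT class (fibril-associated collagens with interrupted triple helices) and 18 other genes. All 44 passed the filter on low counts in the fit of 13 libraries and in the fit of 11 tumors.

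Collagens are the main structural proteins of the extracellular matrix. A collagen molecule is a triple helix of alpha chains, which are the products of these genes. Fibrillar types I, III and V are made chiefly by fibroblasts and form the fibrils of connective tissue, whereas types II and XI are best known from cartilage. FACIT collagens such as type IX bind to the surface of fibrils. Type IV forms the network of basement membranes under epithelium and around vessels. Type VI forms beaded filaments, type VII anchors basement membrane to the matrix below, and type XVII spans the membrane of basal epithelial cells at hemidesmosomes. In breast tumors, collagen mRNA is usually taken to come mainly from the stroma.

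Each tumor library came from an individual tumor, and the tumors form 4 groups. Primary untreated tumors (n = 3) came from mice given neither drug. Primary STV tumors (n = 3) came from mice given 1 mg/mL stavudine (STV), a nucleoside inhibitor of reverse transcriptase, in the drinking water. Recurrent 17-DMAG tumors (n = 3) had regrown while mice received intraperitoneal 17-DMAG, an inhibitor of the chaperone HSP90, at 20 mg/kg 3 times a week. Recurrent 17-DMAG + STV tumors (n = 2) had regrown under both agents. The fifth group was cancer-free mammary gland (n = 2). For every library, glands included, the labels give female mice of the FVB/N-TgN strain that carries MMTV-HER2/neu and is numbered 202Mul/J. The genotype field reads "Wild type", although this strain carries a rat HER2/Neu cDNA under the MMTV promoter, which is active in breast epithelium. The labels allow STV to begin at 2 months of age or once tumors had appeared, without saying which for a given tumor, and give no age at collection. The question was how tumors that regrow after 17-DMAG differ from primary tumors, and whether STV alters either.

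The data were raw read counts per gene, with 39921388 to 56887708 counts per library. Levels are given as CPM, counts scaled by the total of each library multiplied by its factor from TMM normalization. CPM values therefore do not sum to the same total in every library. The floor used here, 3 counts, equalled 0.0587 to 0.107 CPM. Gland 2 stood apart, with a TMM factor of 0.493 against 0.999 to 1.12 elsewhere. Its milk protein genes summed to 764700 CPM, against 28060 CPM in gland 1. Because of that factor, CPM in gland 2 cannot be read as a share of its counts. Gland 1 held B cell markers at 233 CPM in sum, against 2.26 to 6.38 CPM in the other libraries. Skeletal muscle markers summed to 1048 CPM in primary untreated tumor 1, 164 CPM in primary STV tumor 2, 471 CPM in recurrent 17-DMAG tumor 3, 1654 CPM in recurrent 17-DMAG + STV tumor 2 and 1846 CPM in gland 2, and to 15.1 CPM or less elsewhere. Luminal keratins and their companions summed to 2283 to 4618 CPM in every library. In bulk RNA, fewer cells of a type and less RNA per cell cannot be told apart.

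By the median over these tumors, the collagens with the most mRNA were those best known from cartilage. On the scale of CPM per kilobase of exon, which allows comparison between genes, Col9a1 ranked first of 44 in the tumors, with a median of 494.5 CPM per kb (range 271.5 to 590.0, n = 11 tumors). Col11a1 ranked second with a median of 166 CPM per kb, and Col9a2 came next with 113 CPM per kb. The chains that usually lead in connective tissue came after them. Col4a1 had a median of 51.5 CPM per kb, Col3a1 of 50.4, Col1a2 of 38.7 and Col1a1 of 34.2. Recurrent 17-DMAG tumor 1 had another order, with Col3a1 at 426 CPM per kb, Col1a1 at 273, Col9a1 at 271.5 and Col11a1 at 109. In gland 1 Col9a1 also ranked first, at 293 CPM per kb, with Col3a1 at 196 CPM per kb. In gland 2 Col3a1 ranked first, at 200 CPM per kb, with Col9a1 at 123 CPM per kb. Lengths were those of the longest protein-coding transcript of each gene. With the union of all annotated exons instead, the first 3 places in the tumors were held by Col9a1 (374 CPM per kb), Col9a2 (107) and Col11a1 (99.8).

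Col9a1, which encodes the alpha 1 chain of type IX collagen, lay at 2161, 2262 and 2128 CPM in primary untreated tumors, at 1831, 1763 and 2217 CPM in primary STV tumors, at 1041, 1896 and 2052 CPM in recurrent 17-DMAG tumors, and at 1397 and 1052 CPM in recurrent 17-DMAG + STV tumors. The glands had 1124 and 473 CPM. Every primary tumor therefore lay above both glands, whereas recurrent 17-DMAG tumor 1 and recurrent 17-DMAG + STV tumor 2 lay below gland 1. The highest tumor had 2.17 times the lowest, and among the 44 genes only Col4a5 had a narrower range over the 11 tumors, with a ratio of 1.85 (genes with 3 counts or fewer in a tumor are left out of this ranking).

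Col11a1, which encodes the alpha 1 chain of type XI, the cartilage relative of type V, lay at 1272, 1851 and 1461 CPM in primary untreated tumors and at 598, 679 and 1489 CPM in primary STV tumors. In recurrent tumors it lay at 837, 1323 and 1203 CPM after 17-DMAG and at 832 and 2283 CPM after 17-DMAG + STV. The glands, at 528 and 56.2 CPM, lay below all 11 tumors. Col9a2, the alpha 2 chain of type IX, ranged from 74.5 CPM in primary untreated tumor 2 to 483 CPM in recurrent 17-DMAG + STV tumor 2, and Col9a3, the alpha 3 chain, from 51.5 to 206 CPM. Both glands lay below every tumor for Col9a3, at 50.6 and 10.3 CPM.

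Col2a1, the type II chain that these collagens accompany in cartilage, was almost absent. It lay between 0.0461 and 1.24 CPM in 10 tumors, at 8.17 CPM in recurrent 17-DMAG tumor 1, and at 0 counts in both glands. With 0 counts, up to 0.0606 CPM in gland 1 and 0.107 CPM in gland 2 remains possible. The highest ratio of Col2a1 to Col11a1 counts in any library was 0.00977. Col11a2, the alpha 2 chain of type XI, had 0.00643 to 0.0221 counts per count of Col11a1 in the tumors.

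**Figure D1:**
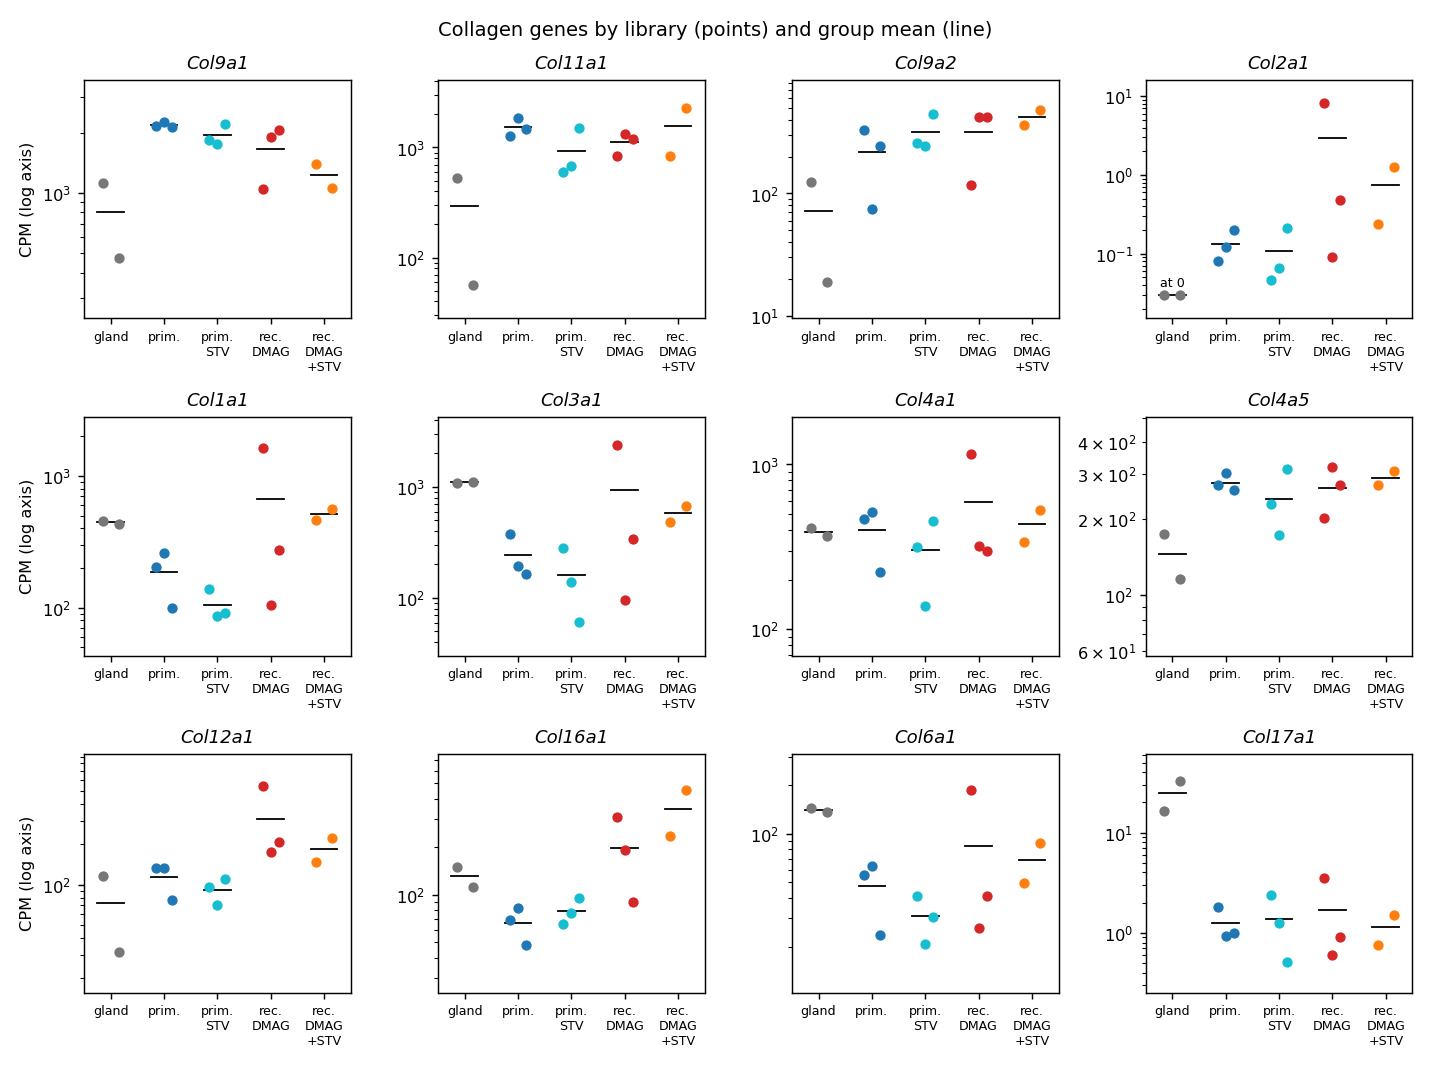
Level of 12 collagen genes in each library, in CPM on a log axis with its own range per panel, with 1 point per library and a line at each group mean (Col2a1 has 0 counts in both glands and is drawn there near the bottom). Col9a1 stays within 1041 to 2262 CPM over the tumors, whereas Col1a1 runs from 86.4 to 1618 CPM.

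Other genes of cartilage did not share 1 pattern. On the list of 10 cartilage and bone markers, 3 were well above the floor in all tumors: Sox9, a transcription factor of cartilage and of several epithelia, at 115 to 182 CPM; Comp, a matrix protein that binds collagen fibrils, at 31.8 to 527 CPM; and Chad, a small leucine-rich matrix protein, at 5.47 to 123 CPM. Glands had 95.7 and 127 CPM of Sox9, 2.93 to 102.3 CPM of Comp and 2.39 to 20.9 CPM of Chad. Acan, which encodes the main cartilage proteoglycan, reached at most 0.591 CPM in a tumor. The highest tumor value was 0.285 CPM for Hapln1, 0.139 CPM for Matn3 and 0.0926 CPM for Bglap, and Matn1 and Ibsp were at 0 in every tumor. So 6 of the 10 markers, Acan among them, never reached 1 CPM in any tumor. The tenth, Sp7, a transcription factor of bone, lay between 0.368 and 1.45 CPM. The list summed to 159 to 766 CPM in tumors and to 101 and 251 CPM in glands.

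**Figure D2:**
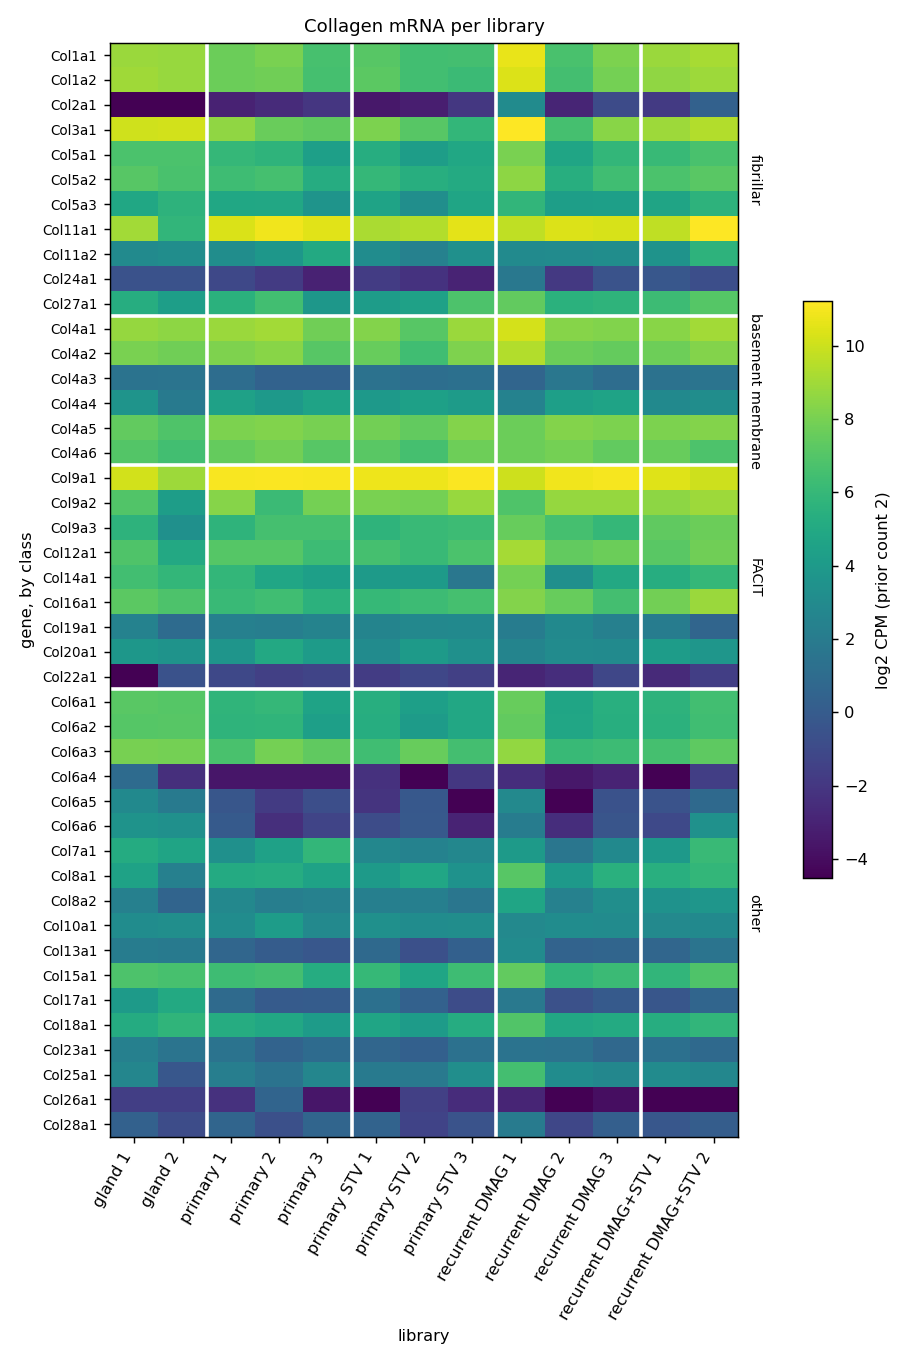
Level of the 44 collagen genes in the 13 libraries, as log2 CPM with a prior count of 2, with genes ordered by class from top to bottom, libraries ordered by group from left to right and white lines between them. Col9a1 and Col11a1 are bright in nearly all columns, Col1a1, Col1a2 and Col3a1 are brightest in recurrent 17-DMAG tumor 1, and Col2a1, Col22a1, Col24a1, Col26a1 and Col6a4 are dark throughout or nearly so.

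Sequences upstream of the starts of Col9a1 and Col11a1 are shown because these genes had the highest median collagen mRNA per length in the tumors. Those of Col1a2 and Col3a1 are shown because these genes varied together over the libraries. All sequences are from RefSeq on GRCm38.p6, on the plus strand, 5′ to 3′. Of the 44 genes, 35 had at least 1 window in the table used, 38 windows in all. Col1a1 and Col2a1 are named only. Capitals mark any of 5 motifs on either strand. The GC box was searched as GGGCGG. The CCAAT box was searched by the letters of its name. The TATA box was searched as TATAAA. The core motifs of SOX factors were searched as ACAAAG, and in a second form as ACAATG. No match overlaps another in the sequences shown. Stretches that lie in an exon of the GENCODE annotation were left out. Col9a1 has an upstream and a downstream start, and gene counts do not separate the transcripts.
Col9a1 upstream start, chr1:24177360-24177609: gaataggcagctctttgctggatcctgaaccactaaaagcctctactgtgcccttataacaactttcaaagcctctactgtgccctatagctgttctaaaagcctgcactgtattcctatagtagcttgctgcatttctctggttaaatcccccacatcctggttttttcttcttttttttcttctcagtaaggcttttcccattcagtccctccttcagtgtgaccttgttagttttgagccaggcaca
Col9a1 downstream start, chr1:24194953-24195186: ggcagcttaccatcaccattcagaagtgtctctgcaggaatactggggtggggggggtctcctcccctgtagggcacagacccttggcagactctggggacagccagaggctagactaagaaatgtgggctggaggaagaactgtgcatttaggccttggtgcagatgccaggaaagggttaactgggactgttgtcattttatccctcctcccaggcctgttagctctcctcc
Col11a1, chr3:114030290-114030539: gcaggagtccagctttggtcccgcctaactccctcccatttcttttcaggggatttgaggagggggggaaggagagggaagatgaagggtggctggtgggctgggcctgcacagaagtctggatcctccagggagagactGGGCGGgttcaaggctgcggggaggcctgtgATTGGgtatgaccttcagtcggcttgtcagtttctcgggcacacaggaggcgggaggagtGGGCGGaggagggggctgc
Col3a1, chr1:45311288-45311537: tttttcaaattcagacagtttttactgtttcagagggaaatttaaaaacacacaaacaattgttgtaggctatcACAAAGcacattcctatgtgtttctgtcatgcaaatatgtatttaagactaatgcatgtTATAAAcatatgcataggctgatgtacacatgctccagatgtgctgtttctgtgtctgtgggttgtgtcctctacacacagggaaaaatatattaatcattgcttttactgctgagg
Col1a2, chr6:4505370-4505492: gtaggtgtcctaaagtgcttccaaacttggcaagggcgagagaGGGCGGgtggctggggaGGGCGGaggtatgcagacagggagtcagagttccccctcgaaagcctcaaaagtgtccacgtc

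The windows differed in base composition. G and C made up 43.6% and 55.6% of the Col9a1 windows, 62.4% of that of Col11a1, 35.2% of that of Col3a1 and 59.3% of that of Col1a2. The stretch shown for Col1a2 holds 123 bases and ends 125 bases before the RefSeq start. Col11a1 held 2 GC boxes and 1 CCAAT box, Col1a2 held 2 GC boxes, and Col3a1 held 1 TATA box and 1 ACAAAG core. Neither Col9a1 window as shown held any of the 5 motifs. The full window of the downstream Col9a1 start held a CCAAT box 18 bases before that start. That of Col1a2 held a CCAAT box 109 bases before its start. Neither box lies whole in the stretches shown. Over full windows of 250 bases before the start, a GC box was present in 22 of 38 collagen windows (57.9%) and in 32.7% of all 32851 promoter windows, and a CCAAT box in 13 of 38 (34.2%) and 33.8%. A TATA box was present in 5 of 38 (13.2%) and 12.4%, an ACAAAG core in 4 of 38 and in 16.5% of all windows, and an ACAATG core in 1 of 38 (2.63%) and 10.7%. These matches of short letters are a description of the windows.

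The genes named most often below lie on GRCm38 as follows. Col9a1 is at chr1:24177610-24252684 and Col3a1 at chr1:45311538-45349706, both on the plus strand. Col11a1 is at chr3:114030540-114220718, Col1a2 at chr6:4504814-4541544, Col1a1 at chr11:94936224-94953042 and Col16a1 at chr4:130047840-130099283, all on the plus strand. Col12a1 is at chr9:79598991-79718831 and Col17a1 at chr19:47646344-47692094, both on the minus strand. Counts are summed over the exons of each gene. Type IV genes lie in 3 head-to-head pairs. The starts of Col4a4 and Col4a3 on chromosome 1 are 72 bases apart, those of Col4a6 and Col4a5 on chromosome X are 1309 bases apart, and Col4a1 and Col4a2 on chromosome 8 overlap by 21 bases. The strand setting of the counting is not given, so reads in that overlap cannot be told apart. The same holds for Col10a1, whose exons overlap those of Nt5dc1, and for Col9a3, whose exons overlap those of Tcfl5.

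All collagens together took 0.445% to 1.39% of library counts in tumors, 0.718% in gland 1 and 0.228% in gland 2. These are shares of raw counts, without the TMM factor used for CPM, which was 0.493 in gland 2. FACIT genes made up 18.7% to 54.0% of the collagen counts of a tumor (median 44.5%, n = 11), fibrillar genes 25.9% to 53.7% (median 33.9%), type IV genes 12.3% to 19.8% (median 17.1%) and the other genes 4.31% to 10.54% (median 6.28%). Gland 1 had 26.2% FACIT, 45.4% fibrillar, 15.6% type IV and 12.8% other counts. Gland 2 had 15.5% FACIT, 50.5% fibrillar, 17.4% type IV and 16.6% other counts. Summed over CPM per kb, so that long genes do not weigh more, FACIT genes took a median of 57.5% of the tumor total and fibrillar genes 25.5%. The 3 type IX genes and Col11a1 alone took 16.6% to 68.6% of the collagen counts in tumors (median 57.2%). Their share was 28.6% in gland 1 and 12.1% in gland 2. Type I and III genes took 3.47% to 40.6% in tumors (median 11.7%), 32.1% in gland 1 and 43.0% in gland 2. Recurrent 17-DMAG tumor 1 had both the lowest share of type IX genes and Col11a1 (16.6%, 95% Wilson interval 16.54 to 16.73) and the highest share of type I and III genes (40.6%, 40.46 to 40.71). It was the only tumor in which type I and III genes outweighed type IX genes and Col11a1.

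**Figure D3:**
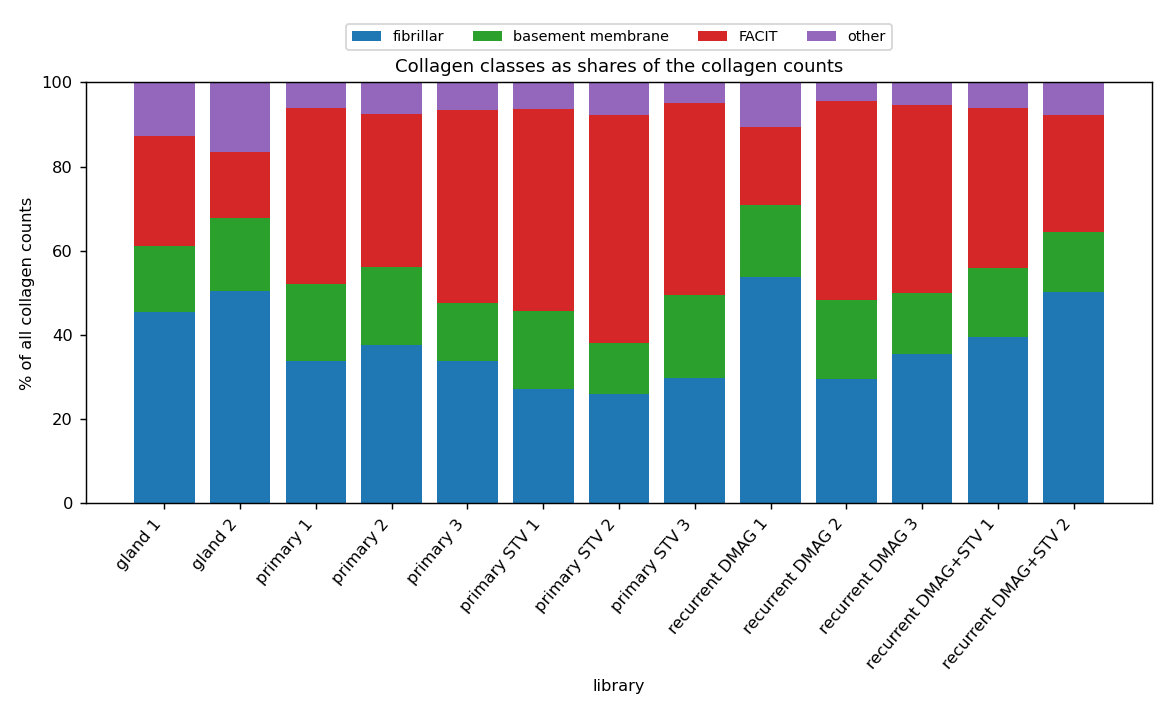
Share of each collagen class in all collagen counts, in percent, as stacked bars with 1 bar per library. FACIT counts make up 36.2% to 54.0% of the bar in the 6 primary tumors and 18.7% in recurrent 17-DMAG tumor 1. They make up 26.2% in gland 1 and 15.5% in gland 2.

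Among the other fibrillar genes, types I, III and V varied together across tumors. Col1a1, the alpha 1 chain of type I, lay at 203, 262 and 99.2 CPM in primary untreated tumors, at 138, 86.4 and 90.7 CPM in primary STV tumors, at 1618, 105 and 274 CPM in recurrent 17-DMAG tumors, at 459 and 562 CPM in recurrent 17-DMAG + STV tumors, and at 454 and 433 CPM in glands. Both 17-DMAG + STV tumors lay above all 6 primary tumors, and recurrent 17-DMAG tumor 1 lay far above all. Col1a2, the alpha 2 chain, followed it closely, from 74.2 CPM in primary STV tumor 3 to 1345 CPM in recurrent 17-DMAG tumor 1.

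Col3a1, the single chain of type III, had 380, 194 and 163 CPM in primary untreated tumors, 281, 140 and 60.6 CPM in primary STV tumors, 2371, 95.1 and 340 CPM in recurrent 17-DMAG tumors and 486 and 671 CPM in recurrent 17-DMAG + STV tumors. The glands had 1093 and 1111 CPM, above every tumor but recurrent 17-DMAG tumor 1. Its ratio of the highest to the lowest tumor was 39.2, against 18.7 for Col1a1. Col5a1 and Col5a2, chains of the type V collagen that is built into type I fibrils, had ratios of 13.8 and 10.9. Col5a3 had a ratio of 5.98. Col27a1, a fibrillar chain of developing cartilage, had a ratio of 12.5 and its lowest value in primary untreated tumor 3. Col24a1 stayed below 1 CPM in all libraries but recurrent 17-DMAG tumor 1, which had 3.33 CPM.

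Type IV genes fell into 2 sets by level. Col4a1 and Col4a2, which encode the chains of the common basement membrane network, lay at 139 to 1165 CPM and at 83.1 to 674 CPM in tumors. Their highest tumor was recurrent 17-DMAG tumor 1 and their lowest primary STV tumor 2, as for Col1a1, but with ratios of 8.39 and 8.11. Col4a5 and Col4a6, chains of epithelial and smooth muscle basement membranes, varied less, from 172 to 319 CPM and from 96.4 to 240 CPM. Glands had 174 and 115 CPM of Col4a5, so that gland 1 lay just above primary STV tumor 2. Col4a3 and Col4a4, best known from kidney and lung, stayed at 1.30 to 3.28 CPM and 5.49 to 24.7 CPM in tumors.

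In the FACIT class, Col12a1 and Col14a1, which bind type I fibrils, lay at 70.3 to 543 CPM and at 3.29 to 242 CPM in tumors. Col14a1 had a ratio of 73.4 between the highest and the lowest tumor, that is, recurrent 17-DMAG tumor 1 and primary STV tumor 3. Col16a1 had its highest value, 456 CPM, in recurrent 17-DMAG + STV tumor 2. Col19a1, Col20a1 and Col22a1 stayed at 7.70, 31.4 and 0.418 CPM or less in tumors.

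Among the other genes, the type VI chains Col6a1, Col6a2 and Col6a3 lay at 20.8 to 186 CPM, 17.6 to 174 CPM and 68.2 to 413 CPM in tumors, and at 136 to 145 CPM, 135 and 137 CPM, and 244 and 256 CPM in glands. Col6a6, a minor type VI chain, had 10.85 CPM in recurrent 17-DMAG + STV tumor 2 and 4.19 CPM in recurrent 17-DMAG tumor 1, 0.0844 to 0.916 CPM in the other 9 tumors, and 11.7 and 10.1 CPM in glands. Col15a1 and Col18a1, whose products carry the angiogenesis inhibitors restin and endostatin at their ends, lay at 26.9 to 174 CPM and 16.9 to 124 CPM. Col7a1, the anchoring fibril collagen, had 10.45, 22.05 and 60.4 CPM in primary untreated tumors, 6.84, 5.35 and 6.79 CPM in primary STV tumors, 16.4, 3.15 and 7.60 CPM in recurrent 17-DMAG tumors and 15.5 and 71.7 CPM in recurrent 17-DMAG + STV tumors. Primary untreated tumor 3 and recurrent 17-DMAG + STV tumor 2 stood out for Col7a1 and also for Col11a2, at 32.3 and 49.5 CPM. Col26a1 and Col6a4 had 3 counts or fewer in 6 libraries each.

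One library carried much of this spread. Recurrent 17-DMAG tumor 1 was the highest of the 11 tumors for 26 of the 44 collagen genes, and for 24.6% of all 16870 genes of the tumor fit. Recurrent 17-DMAG + STV tumor 2 was highest for 8 collagens, against 14% of all genes. Primary STV tumor 2 was the lowest tumor for 16 collagens, against 12.6% of all genes, and primary STV tumor 3 for 8, against 5.60%. Recurrent 17-DMAG tumor 1 also had the highest summed fibroblast markers of the tumors, 625 CPM against 200 to 431 CPM in the other 10, with glands at 638 and 869 CPM. Of the 12 fibroblast markers, Tcf21 was at or near 0 throughout. Scara5 made up much of the sum in several tumors, with 279 CPM of 389 CPM in primary untreated tumor 2, and ran against the list, at 97.6 and 27.2 CPM in glands, 172 to 279 CPM in primary untreated tumors and 125 CPM in recurrent 17-DMAG tumor 1. Macrophage markers were also highest in recurrent 17-DMAG tumor 1, at 702 CPM against 176 to 415 CPM, as were endothelial markers, at 350.0 CPM against 84.8 to 193 CPM. In recurrent 17-DMAG + STV tumor 2, where skeletal muscle markers summed to 1654 CPM, basal and myoepithelial markers summed to 387 CPM, against 55.0 to 327 CPM in the other tumors. The part of these cells in the collagen values was not tested.

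Against the glands, Col17a1 was much lower in tumors. All 6 type VI genes had lower fitted values in tumors and the 3 type IX genes and Col11a1 higher ones, but of these 10 genes only Col6a4 was called. Col17a1 had 16.4 and 32.9 CPM in glands. Its tumor values were 1.81, 0.938 and 1.00 CPM in primary untreated, 2.39, 1.26 and 0.506 CPM in primary STV, 3.54, 0.603 and 0.902 CPM in recurrent 17-DMAG, and 0.7625 and 1.51 CPM in recurrent 17-DMAG + STV tumors. The groups were thus separated with no overlap. In edgeR's quasi-likelihood test with Benjamini-Hochberg adjustment over 17135 genes, Col17a1 had a log2 difference of -4.19 (SE 0.54) for the mean of the 4 tumor groups against glands and thus fell (adjusted p = 0.00221, and 0.0251 or lower under every alternative run). Basal and myoepithelial markers fell alongside, 7 of 10 called and none higher, and summed to 456 and 1218 CPM in glands and 55.0 to 387 CPM in tumors.

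Besides Col17a1, 2 collagens were called in that comparison. Col4a5 rose by a log2 value of 0.88 (SE 0.25, adjusted p = 0.0482), with gland 1 and primary STV tumor 2 overlapping. Col6a4, a minor type VI chain at 1.96 and 0.143 CPM in glands and at 0.285 CPM or less in tumors, fell, with a log2 difference of -3.53 (SE 0.98, adjusted p = 0.0463). It is named because it was called, although its level is under that of the naming rule. Over the alternatives, the adjusted p ran from 0.00662 to 0.327 for Col4a5 and from 0.0324 to 0.823 for Col6a4, so neither call was stable. The 3 calls, 1 up and 2 down, stand against 10.4% of all genes called. At an unadjusted p under 0.05, 13 collagens passed (29.5%), 6 up and 7 down, close to the 29.6% of all genes. DESeq2 called 9 collagens among 3242 genes in all, and limma voom 5 among 1513. Without recurrent 17-DMAG tumor 1, edgeR called 12 (27.3%, against 18.2% of all genes), without gland 1 it called 7 (15.9%, against 24.2%), and without each other library between 1 and 3. The unadjusted threshold was passed by 22 without recurrent 17-DMAG tumor 1 (against 35.9% of all genes) and by 6 without gland 2 (against 14.8%).

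The direction differed by class. All 6 type VI genes were lower in tumors, with a median log2 difference of -2.08, and 5 of them had an unadjusted p under 0.05. Col6a1 and Col6a2 differed by log2 values of -1.38 and -1.43 (adjusted p = 0.126 and 0.112), and Col6a6 by -3.16 (adjusted p = 0.0664). All 6 stayed lower under each of the other scalings and tools and without any 1 library. Of the fibrillar genes, 7 of 11 were lower, with a median of -0.50, and of the 9 FACIT genes 7 were higher, with a median of 0.39 (6 with DESeq2 or RLE size factors, and 5 without gland 2). The median was -0.22 over all 44 collagens and -0.02 over all genes tested. Col9a1 differed by a log2 value of 1.10 (SE 0.34, adjusted p = 0.0623), Col9a3 by 1.76 (SE 0.58, adjusted p = 0.0778) and Col11a1 by 2.10 (SE 0.75, adjusted p = 0.0957). Col23a1, a transmembrane collagen, lay 0.97 lower on the log2 scale with no overlap (adjusted p = 0.106). The groups did not overlap for 3 collagens that were higher in tumors (Col9a3, Col11a1 and Col2a1, of which Col2a1 was at 0 in glands and has no fold) against a background of 4.14%, and for 2 that were lower (Col17a1 and Col23a1) against 7.37%. For Col9a3 the margin was narrow, with gland 1 at 50.6 CPM and primary STV tumor 1 at 51.5 CPM. Fibroblast and adipocyte markers were lower in tumors as well, by medians of -1.79 and -4.10 (log2), with 2 of 11 and 8 of 10 called. So were endothelial markers (median -1.25, 4 of 10 called). T cell markers (8 of 9 called) and B cell markers (5 of 5 called) were also lower in tumors. Their sums lay above the tumors in gland 1 only. T cell markers summed to 176.5 CPM in gland 1, 11.24 CPM in gland 2 and 6.768 to 14.36 CPM in tumors. B cell markers summed to 233.1 CPM in gland 1, 4.496 CPM in gland 2 and 2.256 to 6.379 CPM in tumors. Adipocyte markers summed to 1654 and 4113 CPM in glands and to 18.4 to 248.8 CPM in tumors. The part of these cells in the type VI difference was not tested.

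Primary untreated tumors alone were also set against the glands. Col17a1 fell, with a log2 difference of -4.30 (SE 0.84, adjusted p = 0.0404). It was the only collagen called, against 2.11% of all genes. No collagen was called in 11 of the 13 fits that left out 1 library each, and 7 were called without gland 1 (15.9%, against 19.2% of all genes). At an unadjusted p under 0.05, 10 collagens passed (22.7%), 5 in each direction, against 24.5% of all genes. Without recurrent 17-DMAG tumors 1 and 2 in turn, 19 and 15 passed, against 29.2% and 23.9% of all genes. Col9a1 was higher by a log2 value of 1.45 (adjusted p = 0.0675), Col4a5 by 0.94 (adjusted p = 0.0884) and Col11a1 by 2.39 (adjusted p = 0.121), each without overlap. Col6a6 and Col6a2 differed by log2 values of -4.51 and -1.67 (adjusted p = 0.113 and 0.177). In 8 collagens (18.2%) the untreated tumors lay above both glands, against 18.8% of all genes, and in 19 they lay below both, against 20.4%. Fitted values were higher for 23 of 44, and the median over the family was 0.03, and -0.02 over all genes. Both gland comparisons share the glands and the untreated tumors, so they are not independent.

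**Figure D4:**
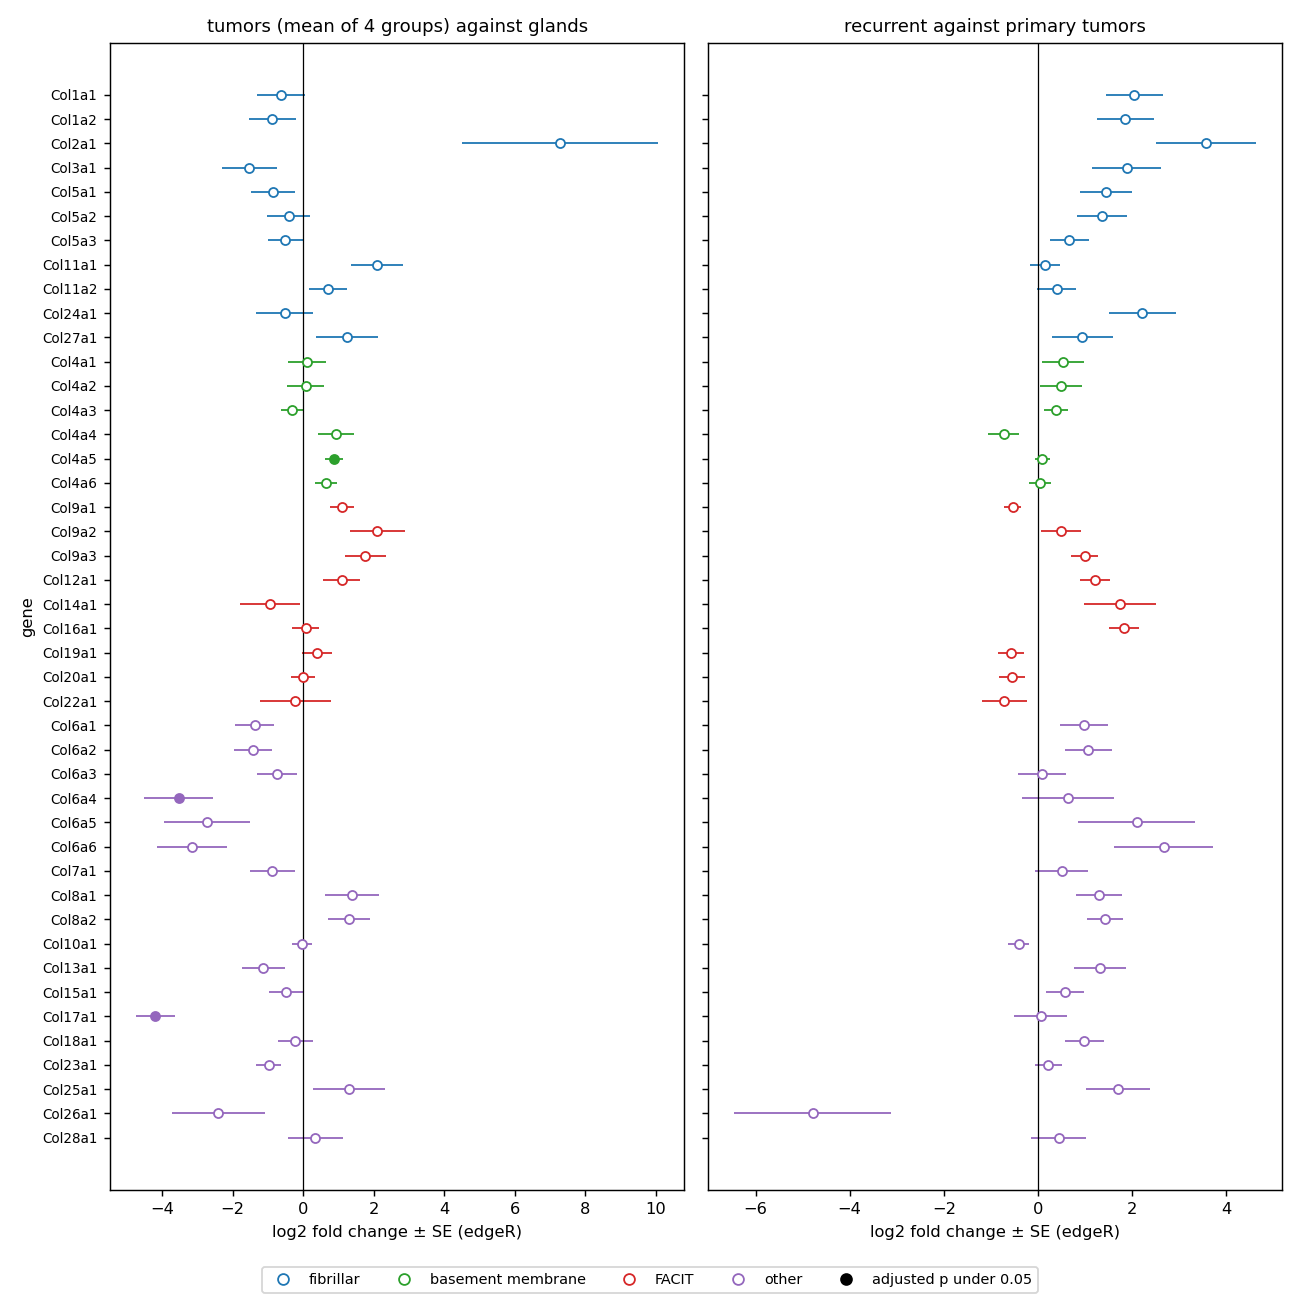
Log2 fold change with its standard error from edgeR for the 44 collagen genes, coloured by class, for the mean of the 4 tumor groups against the glands (left) and for recurrent against primary tumors averaged over water with and without STV (right). Filled points have an adjusted p under 0.05 (Col4a5, Col6a4 and Col17a1 on the left, none on the right), all 11 fibrillar points on the right lie above 0, and Col2a1 on the left is no fold because both glands have 0 counts.

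STV in primary tumors was not followed by a called change in any collagen. The values of most members were somewhat lower in primary STV than in primary untreated tumors, 34 of 44, with a median log2 difference of -0.33 against -0.03 over all genes. Markers of stromal and vessel cells also had lower values, 10 of 11 for fibroblasts (median -0.64), 10 of 10 for endothelium (-0.40) and 6 of 6 for pericytes (-0.48), none called, and their part was not tested. No collagen was called in edgeR, limma voom or DESeq2, and 0% of all genes were called by edgeR. DESeq2 called 17 genes in all and gave no adjusted p for 1 collagen. Before adjustment, at p under 0.05, only Col7a1 passed (2.27% of the family, against 3.76% of all genes). Its primary STV values of 5.35 to 6.84 CPM lay below all 3 untreated values of 10.45 to 60.4 CPM, with a log2 difference of -2.30 (SE 0.80, adjusted p = 1.00). Without primary untreated tumor 3 no collagen passed and the median was -0.52, and without primary untreated tumor 1, 4 passed, against 8.38% of all genes. The median was -0.24 without primary STV tumor 2. The next by p were Col20a1 (log2 -0.80, adjusted p = 1.00) and Col11a2 (-1.21, adjusted p = 1.00), and upward Col4a3 (0.59), Col19a1 (0.41) and Col9a2 (0.53), each with an adjusted p of 1.00.

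Recurrent 17-DMAG tumors had higher values than primary untreated tumors for 34 of 44 collagens, with a median log2 difference of 0.60 against -0.01 over all genes. This median rested on 1 library: without recurrent 17-DMAG tumor 1 it was -0.09, and 17 of 44 collagens were higher. None was called in edgeR, where 0% of all genes were called, or in limma voom. DESeq2 called Col20a1 among 61 genes in all. At an unadjusted p under 0.05, 9 passed (20.5%, against 9.69% of all genes), 7 up and 2 down, and 6 passed without recurrent 17-DMAG tumor 1, against 6.02% of all genes then. The number was 5 without primary untreated tumor 2 (against 4.35% of all genes), and 15 and 14 without recurrent 17-DMAG tumors 2 and 3 (against 11.2% and 11.6%). Col16a1, a FACIT chain of several connective tissues, had 307, 190 and 89.55 CPM against 69.0, 81.9 and 48.4 CPM, a log2 difference of 1.54 without overlap (SE 0.43, adjusted p = 0.509). Col12a1 had 543, 175 and 207 CPM against 134, 134 and 76.7 CPM, a difference of 1.41 (SE 0.43, adjusted p = 0.509). Col25a1, a transmembrane collagen, had 92.4, 8.64 and 6.82 CPM against 4.64, 2.67 and 6.41 CPM, a difference of 2.96 (adjusted p = 0.509) with 1 tumor far above the others. Col20a1, a low-level FACIT gene, was lower, with 5.97, 8.31 and 7.95 CPM against 12.7, 31.4 and 17.3 CPM and a difference of -1.49 (SE 0.37, adjusted p = 0.509). Col7a1 and Col11a2 differed by -1.78 and -1.13 (adjusted p = 0.510 and 0.520).

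In mice on STV, recurrent tumors had higher values than primary tumors for 36 of 44 collagens, all 11 fibrillar genes among them, with a median log2 difference of 0.86 against 0.01 over all genes. In 19 collagens (43.2%) both recurrent 17-DMAG + STV tumors lay above all 3 primary STV tumors, against 17.4% of all genes, and in 4 collagens both lay below, against 17.9%. These 19 included 8 of the 11 fibrillar genes. Markers of 4 other kinds of cells stood apart in the same way, with no overlap of their sums. Fibroblast markers summed to 375 to 408 CPM against 200 to 357 CPM, macrophage markers to 399 to 415 CPM against 176 to 204 CPM, pericyte markers to 413 to 441 CPM against 251 to 331 CPM, and basal and myoepithelial markers to 132 to 387 CPM against 55.0 to 121 CPM. Luminal and Schwann cell markers stood apart in the other direction. They summed to 2283 to 3475 CPM against 3772 to 4618 CPM, and to 595.6 to 786.3 CPM against 899.7 to 957.4 CPM. The sums of the remaining lists, endothelium among them, overlapped. None of the markers in the 4 higher lists was called, and the part of these cells in the collagen values was not tested. No collagen was called in edgeR, where 0% of all genes were called, or in limma voom. DESeq2 called Col9a3, Col16a1 and Col7a1 among 331 genes in all. At an unadjusted p under 0.05, 10 passed (22.7%, against 10.1% of all genes), 8 up and 2 down. Without recurrent 17-DMAG + STV tumor 2 only 2 passed, against 4.06% of all genes, and the median was 0.51. Without recurrent 17-DMAG tumors 1 and 2 in turn, 21 and 15 passed, against 16.7% and 10.1% of all genes, and without primary STV tumor 2 the median was 0.57. Col16a1 had 233 and 456 CPM against 65.4, 76.96 and 95.3 CPM, a log2 difference of 2.13 (SE 0.47, adjusted p = 0.292). Col9a3 had 164 and 206 CPM against 51.5, 70.1 and 77.01 CPM, a difference of 1.49 (SE 0.42, adjusted p = 0.337). Col7a1 differed by 2.79 (SE 0.86, adjusted p = 0.375). Downward, Col9a1 had 1397 and 1052 CPM against 1763 to 2217 CPM (log2 -0.66, SE 0.27, adjusted p = 0.477), Col19a1 differed by -1.28 (adjusted p = 0.405) and Col4a4 by -1.12 (adjusted p = 0.500).

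Over all 5 recurrent and 6 primary tumors, averaged over both kinds of water, 37 of 44 collagens had higher values in recurrent tumors. The median log2 difference was 0.65 for the family, 1.45 for fibrillar, 0.24 for type IV, 0.49 for FACIT and 0.81 for the other genes, against 0.00 for all genes. FACIT genes were split, with 5 higher and 4 lower. Without recurrent 17-DMAG tumor 1 the median was 0.73 for fibrillar, 0.07 for type IV and 0.38 for the other genes, and without primary untreated tumor 2 it was 0.28 for FACIT genes. None was called (smallest adjusted p = 0.287 in edgeR, with 0% of all genes called). Before adjustment, at p under 0.05, 19 passed (43.2%), 17 up and 2 down, against 13.6% of all genes. Among them were 7 of the 11 fibrillar genes, all higher, and none of the type IV genes. They also held 5 of the 9 FACIT genes (4 higher and 1 lower) and 7 of the 18 other genes (6 higher and 1 lower). DESeq2 called 7 collagens (Col1a1, Col1a2, Col2a1, Col8a2, Col9a3, Col12a1 and Col16a1) among 419 genes in all, and limma voom 0. Without recurrent 17-DMAG tumor 1, 11 passed the unadjusted threshold, against 10.8% of all genes, with a family median of 0.44. Without recurrent 17-DMAG + STV tumor 2, 9 passed, against 7.30%, with a median of 0.39. Without primary untreated tumor 3 and primary STV tumor 2 in turn, 12 and 11 passed, against 8.80% and 9.74%. All 11 fibrillar genes were higher, and 9 to 11 were higher when 1 library was left out.

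Col12a1 was the only collagen with no overlap between recurrent tumors, at 149 to 543 CPM, and primary tumors, at 70.3 to 134 CPM, with a log2 difference of 1.22 (SE 0.32, adjusted p = 0.287). The background was 0.652% of genes higher without overlap and 0.688% lower. Col16a1 had the smallest p of the family, with a difference of 1.83 (SE 0.32, adjusted p = 0.287, 1.74e-05 to 0.554 over the alternatives) and an overlap between recurrent 17-DMAG tumor 3 at 89.55 CPM and primary STV tumor 3 at 95.3 CPM. Col8a2, a chain of hexagonal networks of vessel and cornea matrix, differed by 1.42 (SE 0.38, adjusted p = 0.287). Col1a1, Col1a2 and Col3a1 differed by 2.05, 1.86 and 1.89 (SE 0.61, 0.60 and 0.73, adjusted p = 0.296, 0.313 and 0.335). Col9a1 went the other way, by -0.53 (SE 0.18, adjusted p = 0.313), as did Col4a4 by -0.73 (adjusted p = 0.376) and Col19a1 by -0.57 (adjusted p = 0.389). Col11a1 differed by 0.15 (SE 0.32), and by -0.29 without recurrent 17-DMAG + STV tumor 2, and Col9a2 by 0.49 (SE 0.43). Fibroblast markers moved the same way, 10 of 11 higher with a median of 1.13 and none called. Macrophage markers were higher in 10 of 10, with a median of 0.73 and none called. Summed fibroblast markers nevertheless overlapped, at 271 to 625 CPM in recurrent and 200 to 431 CPM in primary tumors. Their part in the collagen values was not tested. All recurrent tumors had received 17-DMAG and no primary tumor had, so recurrence and drug exposure cannot be told apart.

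Recurrent tumors with and without STV were compared next. The family median was -0.38 on the log2 scale in recurrent 17-DMAG + STV against recurrent 17-DMAG tumors, against 0.00 over all genes, and turned to 0.69 without recurrent 17-DMAG tumor 1. No collagen was called in edgeR, limma voom or DESeq2, and 0% of all genes were called by edgeR. DESeq2 called 277 genes in all and gave no adjusted p for 5 collagens. At an unadjusted p under 0.05 in edgeR, 4 passed (9.09%, against 7.84% of all genes): Col11a2 (1.85, adjusted p = 0.493), Col20a1 (1.08, adjusted p = 0.549), Col7a1 (2.27, adjusted p = 0.562) and Col19a1 (-1.001, adjusted p = 0.609). Without recurrent 17-DMAG tumor 1, 9 passed (against 12.2% of all genes), and without recurrent 17-DMAG + STV tumor 2, 1 passed (against 2.81%). Col20a1 lay at 17.6 and 13.5 CPM against 5.97 to 8.31 CPM, without overlap. Col25a1 and Col4a4 differed by -2.26 and -1.002 (adjusted p = 0.678 and 0.703), and Col25a1 by -0.04 without recurrent 17-DMAG tumor 1.

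The interaction asks whether the difference between recurrent and primary tumors depended on STV. In edgeR 0 collagens and 0% of all genes were called, and 4 collagens (9.09%) had an unadjusted p under 0.05, against 7.84% of all genes. Col7a1 had the largest interaction, 4.58 on the log2 scale (SE 1.17, adjusted p = 0.444). Its highest values were in primary untreated tumor 3 and recurrent 17-DMAG + STV tumor 2. Col11a2, high in the same tumors, had 3.06 (SE 0.84, adjusted p = 0.471), Col20a1 1.88 (SE 0.54, adjusted p = 0.471) and Col19a1 -1.41 (SE 0.55, adjusted p = 0.600). Col25a1 and Col4a4 had -2.52 and -0.78 (adjusted p = 0.698 and 0.802), and Col25a1 -0.33 without recurrent 17-DMAG tumor 1. DESeq2 called Col7a1 and Col11a2 among 189 genes in all, and limma voom 0. The family median was 0.07, against 0.03 for all genes, and 1.02 without recurrent 17-DMAG tumor 1, where 14 collagens passed the unadjusted threshold, against 13.4% of all genes. Without recurrent 17-DMAG + STV tumor 2, 2 passed, against 3.88%.

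Count ratios between chains do not depend on how libraries are scaled. The chain pairs of types I, IV (Col4a1 and Col4a2) and VI had narrow ratios, whereas those of types IX and XI and the pair Col4a5 and Col4a6 did not. Col4a1 gave 1.54 to 1.73 counts per count of Col4a2 in the tumors, a range of 1.13-fold, and 1.57 and 1.63 in glands. Col6a1 gave 0.948 to 1.19 counts per count of Col6a2 (1.25-fold), and Col1a1 0.907 to 1.22 per count of Col1a2 (1.35-fold), while the Col1a1 level itself ranged 18.7-fold. For type IX, Col9a2 gave 0.0330 to 0.459 counts per count of Col9a1 (13.9-fold), and Col9a3 gave 0.0243 to 0.195 (8.05-fold), both wider than the 2.17-fold range of the Col9a1 level. Col11a2 to Col11a1 ranged 3.43-fold and Col4a5 to Col4a6 2.78-fold. Col9a1 gave between 0.643 counts per count of Col1a1, in recurrent 17-DMAG tumor 1, and 24.4, in primary STV tumor 3, a range of 38.0-fold.

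Of 6 ratios tested in 2 comparisons, none passed after Benjamini-Hochberg adjustment over the 12 exact two-sided permutation tests. Col6a1 to Col6a2 was lower in recurrent tumors by 0.13 on the log2 scale (exact p = 0.0173, adjusted p = 0.121, 5 against 6 tumors). Col4a1 to Col1a1 was lower by 1.12 (exact p = 0.0303, adjusted p = 0.121), and Col5a1 to Col1a1 by 0.43 (exact p = 0.0563, adjusted p = 0.135). Col1a1 to Col1a2 was higher in recurrent tumors by 0.16 (exact p = 0.0779, adjusted p = 0.156). Col3a1 to Col1a1 and Col4a1 to Col4a2 differed by -0.18 and 0.01 (exact p = 0.597 and 0.693). Against the glands, Col3a1 to Col1a1 lay between 0.668 and 2.04 in tumors and at 2.41 and 2.57 in glands, with no overlap (difference -1.01, exact p = 0.0256, adjusted p = 0.121), which is the smallest p that 11 against 2 libraries allow. Col1a1 to Col1a2 was higher in tumors by 0.22 (exact p = 0.0513, adjusted p = 0.135), and Col4a1 to Col1a1 by 0.94 (exact p = 0.205). The other 3 ratios differed from glands by -0.15 to 0.05, with exact p of 0.539 to 0.667.

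**Figure D5:**
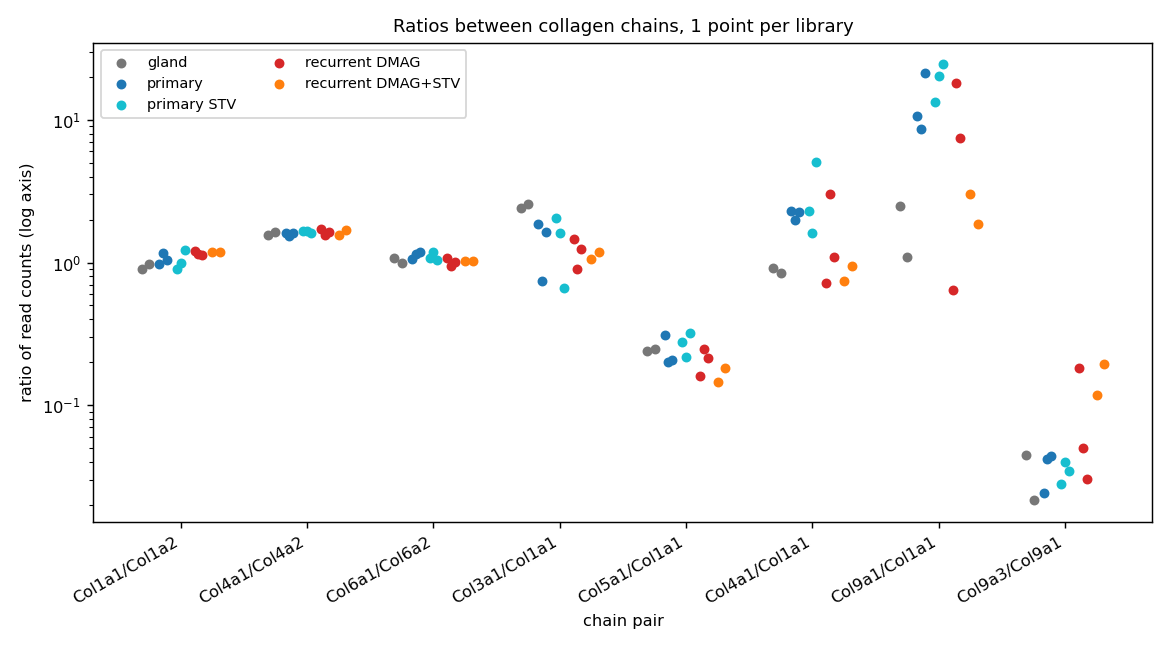
Ratio of read counts between pairs of collagen chain genes, on a log axis, with 1 point per library coloured by group. Col1a1/Col1a2, Col4a1/Col4a2 and Col6a1/Col6a2 span 1.35-fold, 1.13-fold and 1.25-fold over the tumors, whereas Col9a1/Col1a1 spans 38.0-fold and Col9a3/Col9a1 8.05-fold.

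Genes that modify, fold, process and bind collagen were counted by list. Between recurrent and primary tumors none of the 59 tested was called, and 21 had an unadjusted p under 0.05 (35.6%, against 13.6% of all genes). All 11 tested genes of the fibril-binding list were higher in recurrent tumors (median log2 difference 1.40), 4 of them at an unadjusted p under 0.05. Bgn, the proteoglycan biglycan, differed by 1.70 (adjusted p = 0.289) and Postn, which encodes the matrix protein periostin, by 1.65 (adjusted p = 0.342). Of 12 genes for propeptide removal and crosslinking, 9 were higher (median 0.90), 5 at that threshold, such as Bmp1, a procollagen C-proteinase, by 1.62 (adjusted p = 0.313), and Loxl1, a lysyl oxidase, by 1.62 (adjusted p = 0.335). Of the 15 prolyl and lysyl modification genes 13 were higher (median 0.39), of the 11 folding and secretion genes 7 (median 0.13), and of the 10 receptor and uptake genes 8 (median 0.26). Ppib, a prolyl isomerase that acts on procollagen, differed by -0.41 (SE 0.10, adjusted p = 0.287) and the receptor kinase Ddr1 by -0.31 (adjusted p = 0.313), while the collagen-binding integrin Itga2 differed by 2.39 (adjusted p = 0.287).

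Between tumors and glands, 7 of the 60 tested genes of these lists were called (11.7%), close to the 10.4% of all genes. Fkbp14, a collagen-binding prolyl isomerase (0.75, adjusted p = 0.0224), Plod1, a lysyl hydroxylase (1.40, adjusted p = 0.0447), Ddr1 (0.59, adjusted p = 0.0264) and the integrin chain Itgb1 (0.53, adjusted p = 0.0453) rose. Colgalt2, which glycosylates collagen, (-2.05, adjusted p = 0.0275), Prelp, a fibril-binding proteoglycan (-1.57, adjusted p = 0.0371), and the adhesion receptor Adgrg1 (-0.79, adjusted p = 0.0473) fell. By list, 10 of 11 fibril-binding genes were lower in tumors (median -1.43), as were 11 of 13 processing genes (median -0.49), 9 of 11 folding genes (median -0.37), 8 of 10 receptors (median -0.55) and 7 of 15 modification genes (median 0.09).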

How the data were processed

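RNA had been extracted from frozen tissue of 13 samples, depleted of ribosomal RNA and sequenced with a stranded kit. The table deposited holds raw counts of reads in each gene, which the authors made with STAR on mouse genome GRCm38 and featureCounts of Subread 1.6.2, after bcl2fastq 2.20, according to the submitters' processing notes. The strand setting and the treatment of reads that map to several places are not given in the sources used here. Groups came from the labels, which do not say that samples of a group came from separate mice, so p-values measure the spread between these samples.

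From the counts, edgeR 4.0.16 in R 4.3.3 was run with filterByExpr, TMM factors and the robust quasi-likelihood test (two-sided). The gland comparisons used all 13 libraries and 17135 genes, and the others 11 tumors and 16870 genes, with a mean per group. P-values were adjusted by Benjamini-Hochberg over all genes of a comparison, and calls were made where this value was under 0.05. The biological coefficient of variation was 0.431 and 0.402. Standard errors are the log2 fold change divided by the square root of F. Chain ratios were tested by exact two-sided permutation of the mean log2 ratio over libraries (462 or 78 arrangements). Alternatives were DESeq2 1.42.0, limma 3.58.1 (voom), RLE size factors, no filter, fewer libraries, other gene sets, a replicate block and leaving out each library. The fit was tested on simulated data. Positions and lengths came from GENCODE M21.

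Named members were, per comparison, up to 4 called members in each direction with the largest change, groups that do not overlap and a mean level of 1 or more in log2 CPM, filled to 3 by the smallest p at that level. A further set was named for levels or for a role in a class. Members, classes and lists were chosen with earlier results of these data known. Intervals and floors cover counting error only. No pairing of samples by replicate number was seen: over 15 pairs of tumors with the same number, deviations from group means correlated at -0.289 to 0.217 (median -0.048), and over 30 pairs with different numbers at -0.355 to 0.357. Deviations within such small groups depend on each other, so this check cannot settle whether samples were paired.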

Additional observations from a re-analysis of the deposited data

How the results depend on the processing

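With groups of 2 or 3 libraries and a biological coefficient of variation of 0.431 and 0.402, differences that rest on 1 tumor could not be separated from spread. The number of collagens called against glands depended most on the setting. For primary untreated tumors it was 1, and 6 with DESeq2 among 2352 genes in all. It was 0 with the replicate block, 0 with the compared libraries only, and 0 to 7 when 1 library was left out. For the mean of the 4 tumor groups it was 3, and 9 with DESeq2 (among 3242 genes) and 5 with limma voom (among 1513). It was 1 with the replicate block, and 1 to 12 when 1 library was left out. Between tumor groups edgeR called 0. DESeq2 called 1 after 17-DMAG (among 61 genes) and 3 after 17-DMAG + STV (among 331). It called 7 for recurrence averaged (among 419) and 2 for the interaction (among 189). The replicate block called 0 there. The family median of recurrent 17-DMAG + STV against recurrent 17-DMAG tumors ran from -0.72 to 0.69, and that of the interaction from -0.26 to 1.02, when 1 library was left out. The cause was not tested. Ratio differences near 0 changed sign when 1 library was left out: Col4a1 to Col4a2 in recurrence (-0.00729 to 0.0310), the same against glands (-0.00201 to 0.0534), and Col6a1 to Col6a2 against glands (-0.0057 to 0.1005). None of the members chosen by the naming rule changed direction in its comparison under the alternatives run. Of others named, Col11a1 in recurrence turned from 0.15 to -0.29 without recurrent 17-DMAG + STV tumor 2.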
